A study of Mus musculus with 13 samples.

Results

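The genes described here are 9 that carry or mark macrophage identity: the transcription factor genes Spi1, Maf, Mitf and Tfec, the receptor genes Csf1r and Cx3cr1, the surface protein genes Adgre1 and Itgam, and Cd68. They were given as a set of 9 named genes, of 21887 protein-coding genes in the annotation, by a rule that uses no measured value, although earlier results of these data were known when they were proposed. A gene's value is the sum of reads in the enriched islands of a library that touch the mm10 span of the gene or the 1 kb on either side. What was measured is acetylation of lysine 27 of histone H3 (H3K27ac), by chromatin immunoprecipitation and sequencing, in primary bone marrow-derived macrophages of C57BL/6 mice on day 7 of culture in L929-conditioned medium. There were 13 libraries, 1 per condition. In the cytokine experiment, 7 libraries came from cells given interferon-γ (IFNγ, 100 ng/ml) together with interleukin-4 (IL-4, 10 ng/ml) for 2 h or 4 h, IFNγ alone for 2 h or 4 h, IL-4 alone for 2 h or 4 h, or no treatment (UT). In the knockdown experiment, 6 libraries came from cells with an shRNA against JunB (shJunB), an shRNA against C/EBPβ (shCEBP-beta) or a scramble shRNA, each after 4 h of IFNγ (100 ng/ml) or untreated. No shRNA appears in the labels of the cytokine experiment, whose cells are called unmodified for that reason, and the labels do not say how the shRNAs were delivered or how far the proteins fell. The series asks how gene regulation in macrophages changes with single cytokines and with both.

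H3K27ac marks active promoters and enhancers, and genes that define a cell type often lie in long stretches of it. Spi1 encodes PU.1, the ETS-family factor that opens much of the myeloid enhancer repertoire and activates Csf1r, the receptor for the macrophage growth factor M-CSF supplied by L929 cells. Mitf and Tfec belong to the MiT family of basic helix-loop-helix factors that act in macrophages, osteoclasts and, for Mitf, melanocytes, and Maf encodes c-Maf, a factor tied to the quiescent macrophage state. Cx3cr1 encodes the fractalkine receptor, Itgam the integrin chain CD11b, Adgre1 the adhesion receptor recognised by the F4/80 antibody, and Cd68 a glycoprotein of lysosomes.

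Recovered library totals were 21.7 to 37.4 M reads in the cytokine experiment and 14.3 to 29.5 M in the knockdown experiment, the lowest being scramble cells with IFNγ. Islands held 77.1% to 80.0% of the reads and covered 176 to 206 Mb in the cytokine experiment, against 65.1% to 73.0% and 218 to 244 Mb in the knockdown experiment. Since each condition has 1 library, single differences carry no replicate error, and intervals of a level or a fold are exact 95% Poisson or binomial intervals that cover counting error only. A file lists only islands past the authors' threshold, so a gene without an island is called "not called", which is no measurement of 0. In a bulk culture, fewer cells with an acetylated gene and less acetylation per cell cannot be told apart. The labelled cell type was checked on marker lists, and 27 of 28 macrophage core genes had an island in all 13 libraries. So did 5 of 7 dendritic cell markers, 4 of 12 monocyte and granulocyte markers, 3 of 7 T cell, 2 of 6 B cell, 1 of 6 mast cell and basophil, 0 of 5 NK cell and 0 of 6 fibroblast markers. Those with an island in no library were Cd209a of the dendritic cell list, Ly6c2, S100a9, Mpo and Ly6g of the monocyte and granulocyte list, Cd3g, Cd8a and Bcl11b of the T cell list, Pax5 and Ebf1 of the B cell list, Mcpt8 of the mast cell list, Ncr1, Eomes and Gzma of the NK cell list, and Col1a2, Pdgfra, Dcn and Lum of the fibroblast list. The targets of the shRNAs cannot be checked with this mark, which does not report the RNA or the protein. Summed normalised island reads at Junb were 7062 and 5320 in shJunB cells with and without IFNγ, against 6446 and 6233 in scramble cells. At Cebpb they were 12204 and 2976 in shCEBP-beta cells with and without IFNγ, against 4655 and 3014 in scramble cells. The high value with IFNγ at Cebpb was not particular to shCEBP-beta cells, with 12120 in shJunB and 10487 in unmodified cells at 4 h.

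Sequences before start sites, from RefSeq (GRCm38.p6), were used for 5 of the 9 genes, and the 250 bases before a start are shown where island calls over the start bear on a result below. The start of Itgam lay inside an island in 13 of 13 libraries, as did those of Cd68, Tfec and the most upstream start of Mitf, whereas the start of Cx3cr1 lay inside one in 11 and the most downstream start of Mitf, which serves the melanocyte isoform, in 0. The windows are at chr7:128062390-128062639 (plus strand) for Itgam, chr11:69666171-69666420 (minus) for Cd68, chr9:120068297-120068546 (minus) for Cx3cr1, and chr6:97806808-97807057 and chr6:97991533-97991782 (both plus) for Mitf. Capitals mark GAGGAA or its reverse complement TTCCTC, the core of sites bound by PU.1, the product of Spi1, and TGACGTCA, the palindromic cAMP response element; both were searched on both strands, and no matches overlapped.
Itgam: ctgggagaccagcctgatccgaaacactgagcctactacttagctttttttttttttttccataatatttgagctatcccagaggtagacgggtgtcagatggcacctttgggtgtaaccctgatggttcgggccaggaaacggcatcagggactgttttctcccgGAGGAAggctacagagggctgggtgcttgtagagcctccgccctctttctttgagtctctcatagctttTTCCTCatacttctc
Cd68: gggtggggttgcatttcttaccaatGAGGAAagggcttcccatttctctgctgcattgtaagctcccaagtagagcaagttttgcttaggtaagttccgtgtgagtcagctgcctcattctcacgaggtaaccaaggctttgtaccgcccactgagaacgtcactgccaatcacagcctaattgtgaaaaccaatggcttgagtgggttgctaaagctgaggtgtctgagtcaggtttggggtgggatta
Cx3cr1: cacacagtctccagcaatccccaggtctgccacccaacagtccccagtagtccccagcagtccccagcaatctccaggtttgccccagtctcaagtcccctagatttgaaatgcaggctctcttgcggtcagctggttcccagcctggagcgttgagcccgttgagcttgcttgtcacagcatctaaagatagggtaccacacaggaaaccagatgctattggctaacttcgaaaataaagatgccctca
Mitf, most upstream start: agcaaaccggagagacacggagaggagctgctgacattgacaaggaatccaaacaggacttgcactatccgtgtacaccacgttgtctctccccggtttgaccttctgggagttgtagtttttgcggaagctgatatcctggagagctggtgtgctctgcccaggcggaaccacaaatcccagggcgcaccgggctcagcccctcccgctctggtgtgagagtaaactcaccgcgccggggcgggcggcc
Mitf, most downstream start: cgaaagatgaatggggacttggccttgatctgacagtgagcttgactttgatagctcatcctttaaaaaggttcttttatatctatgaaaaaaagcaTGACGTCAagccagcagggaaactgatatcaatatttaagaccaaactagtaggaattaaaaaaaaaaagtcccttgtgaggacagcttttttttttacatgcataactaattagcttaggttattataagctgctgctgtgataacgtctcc
The Itgam window holds 2 matches of the PU.1-type core, beginning 84 and 15 bases before the start, and the Cd68 window 1, beginning 225 bases before it. The same core is found in 23.4% of 32536 distinct windows of that length before RefSeq starts, and TGACGTCA, found once in the melanocyte window of Mitf, in 1.56%. The windows of Cx3cr1 and of the most upstream Mitf start hold neither run of letters.

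Of the 9 genes, 8 had an island in all 13 libraries, against 11507 of 21887 protein-coding genes in the annotation, and Cx3cr1 had one in 11. Per kilobase of called island, the median level over the libraries was highest at Spi1, with 266 normalised reads per kb, and then 256 at Cd68, 211 at Adgre1, 193 at Csf1r, 168 at Mitf, 143 at Maf, 132 at Tfec, 91.8 at Itgam and 65.8 at Cx3cr1 (11 libraries). The ranges over the libraries of genes next to each other in that order overlapped: Spi1 ran between 152 and 424 and Cd68 between 131 and 397 normalised reads per kb, Itgam between 71.5 and 219 and Cx3cr1 between 33.3 and 87.5. Spi1 shared its islands with Mybpc3, Psmc3 and Slc39a13, Csf1r with Hmgxb3 and Pdgfrb, and Cd68 with Eif4a1, Fxr2, Mpdu1, Senp3, Sox15, Tnfsf12, Tnfsf13 and Tnfsfm13 in at least 1 library, so reads at those 3 genes are not theirs alone. The other 6 genes shared none.

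**Figure D1:**
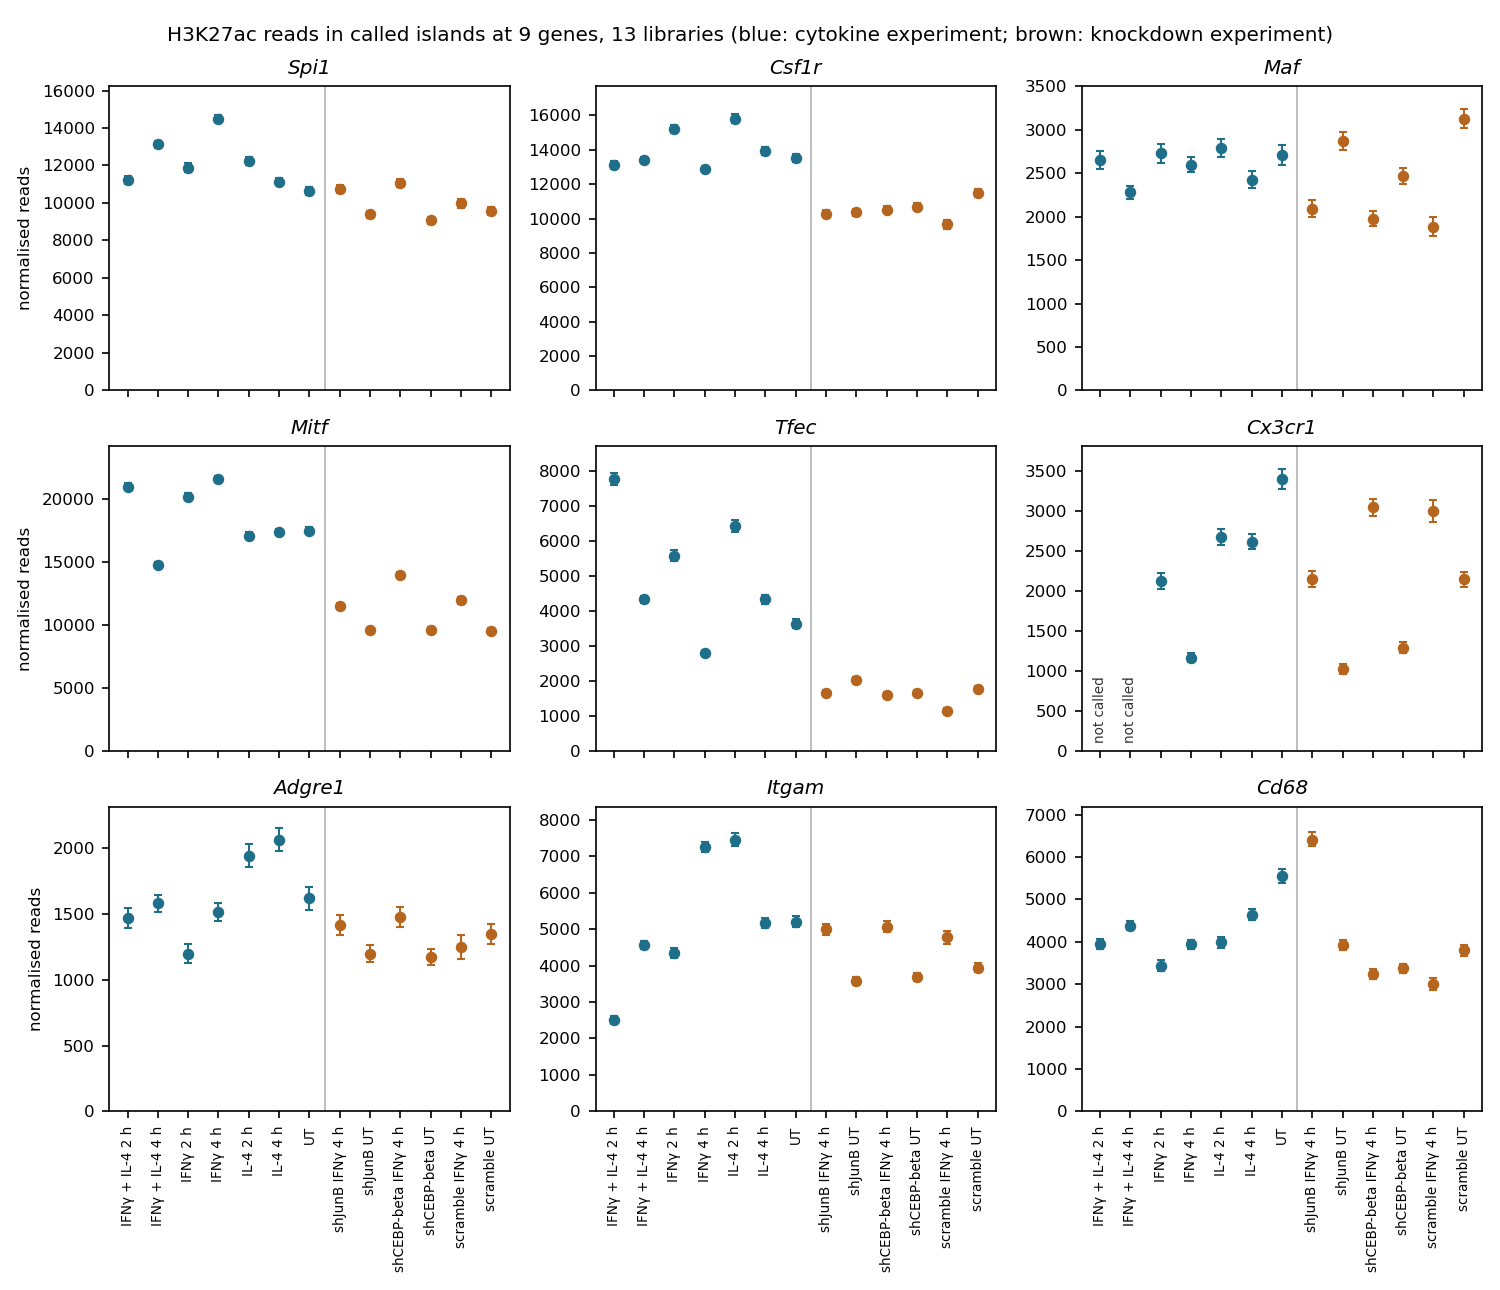
Normalised reads (y axes, from 0) in islands at each of the 9 genes in each of the 13 libraries (x axis), with exact Poisson 95% intervals; blue points are the cytokine experiment and brown the knockdown experiment. Tfec, Csf1r and Mitf were lower in every knockdown library than in every cytokine library, and Cx3cr1 was not called in either library with both cytokines.

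Spi1 had the narrowest range of the 4 transcription factor genes, with a lowest level of 9073, a median of 11065 and a highest of 14500 normalised reads over the 13 libraries, 1.60-fold from end to end. In the cytokine experiment it had 11205 and 13121 normalised reads after 2 h and 4 h of both cytokines, 11880 and 14500 after IFNγ and 12244 and 11144 after IL-4, against 10651 in untreated cells. All 6 treated libraries lay above the untreated one, IFNγ at 4 h highest at 1.36-fold, and none reached 2-fold. Csf1r, the receptor through which these cells are grown, ran between 12888 and 15811 in the cytokine experiment and between 9661 and 11497 in the knockdown experiment, without an overlap, and its widest difference from untreated cells in the cytokine experiment was 1.17-fold, after 2 h of IL-4. Maf had 2652 and 2278 normalised reads after 2 h and 4 h of both cytokines, 2727 and 2598 after IFNγ and 2784 and 2425 after IL-4, against 2708 in untreated cells. In the knockdown experiment Maf had 2091 with IFNγ and 2865 without in shJunB cells, 1975 and 2467 in shCEBP-beta cells, and 1878 and 3127 in scramble cells. Maf was thus lower with IFNγ in each of the 3 shRNA backgrounds, by 1.37-fold, 1.25-fold and 1.66-fold, and by 1.04-fold in unmodified cells.

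Mitf carried the most reads of the 9 genes in all 7 cytokine libraries, in 2 long blocks. The block over the most upstream start, from -20.1 to 5.14 kb relative to it, held a median of 16.5% of the gene's reads, and the block from 6.74 to 82.7 kb after the start held 82.4%. The second start, 123 kb downstream, lay in a weak island in 7 libraries, with a deposited fold over the control of 1.36 to 2.05 against 3.91 to 7.12 at the most upstream start. The melanocyte start, 185 kb downstream, lay in none. Small islands further into the gene body, named after their calls were seen, between 206.7 and 211.3 kb after the first start, were called in 6 libraries, all of them treated libraries of the cytokine experiment, and in neither the untreated library nor any of the 6 shRNA libraries. Summed over the gene, Mitf had 21005 and 14801 normalised reads after 2 h and 4 h of both cytokines, 20229 and 21617 after IFNγ and 17128 and 17432 after IL-4, against 17501 in untreated cells.

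**Figure D2:**
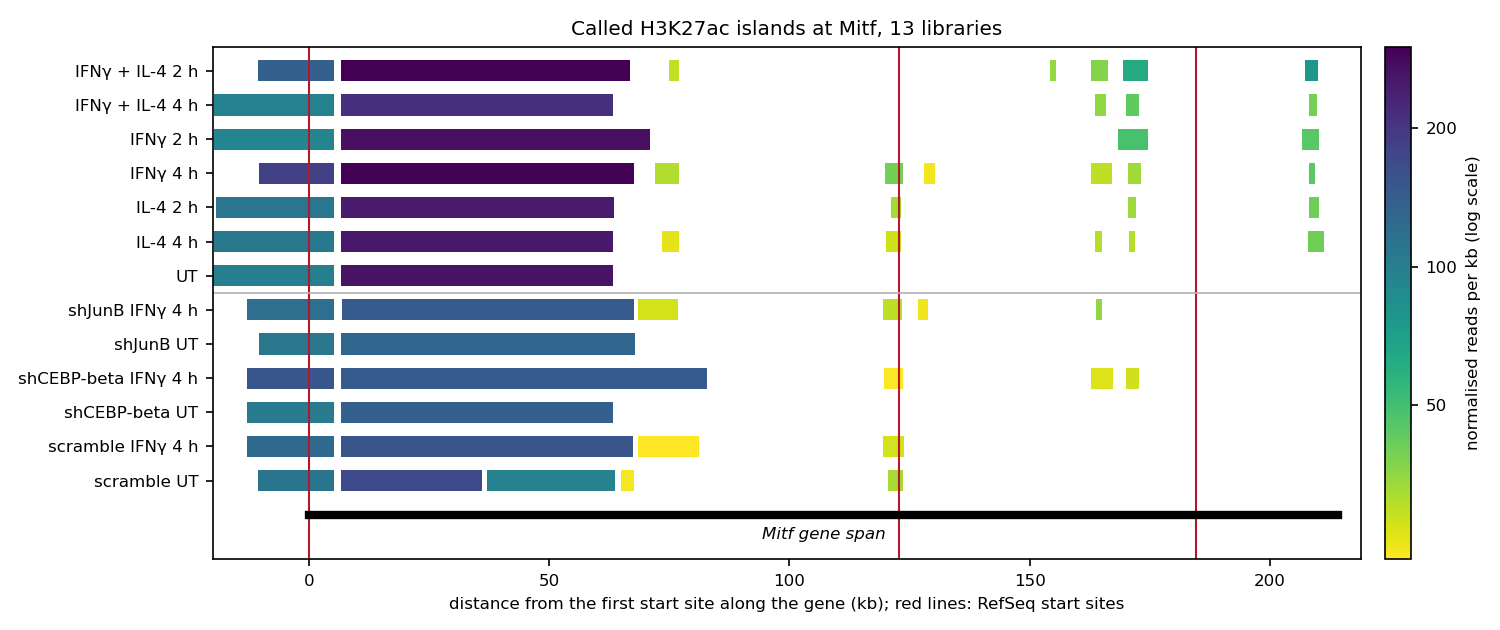
Islands at Mitf in the 13 libraries (rows), drawn by distance from the most upstream start (x axis, kb), with colour giving normalised reads per kb on a log scale, red lines the 3 RefSeq starts and the black bar the gene span. The 2 long blocks near the first start were called in every library, and the third start, 185 kb downstream, lies in no island.

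Tfec had the widest range of the 8 genes called throughout, between 1149 and 7771 normalised reads, 6.77-fold. It stood at 7771 and 4331 normalised reads after 2 h and 4 h of both cytokines, 5582 and 2794 after IFNγ and 6426 and 4329 after IL-4, against 3639 in untreated cells. The 3 libraries at 2 h were the 3 highest of all 13, at 2.14-fold, 1.53-fold and 1.77-fold of untreated cells, and each 4 h library was lower than its 2 h counterpart. In the knockdown experiment Tfec had 1661 normalised reads with IFNγ and 2019 without in shJunB cells, 1593 and 1658 in shCEBP-beta cells and 1149 and 1775 in scramble cells. The groups of the 2 experiments did not overlap. Nearly all of this signal lay in 1 block around the start, from -4.76 to 18.2 kb relative to it, which held at least 94.9% of the gene's reads in every library.

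Cx3cr1 was the only member without a call in some libraries. It was not called after 2 h or 4 h of both cytokines, it had 2122 and 1163 normalised reads after 2 h and 4 h of IFNγ and 2668 and 2616 after IL-4, and 3396 in untreated cells (95% interval of the counts at 4 h of IFNγ against untreated cells 0.322 to 0.364 as a fold, that is 2.92-fold lower). By the islands that touch the gene's window, all 6 treated libraries of the cytokine experiment were thus below the untreated one or not called. Called length was 21.8 kb after 4 h of IFNγ and 38.8 kb in untreated cells. Per kb of called island the levels were closer, at 53.3 and 87.5 normalised reads. In the knockdown experiment the order was the reverse: 2146 normalised reads with IFNγ and 1025 without in shJunB cells, 3042 and 1291 in shCEBP-beta cells and 2992 and 2143 in scramble cells, or 2.09-fold, 2.36-fold and 1.40-fold higher with IFNγ. Summed over the gene, these directions depend on how islands are assigned. With islands merged over libraries, the region at the 3′ side of Cx3cr1 runs on into a neighbouring domain that includes Xirp1, and all 6 treated libraries were above the untreated one there, at 4344 to 6857 against 3818 normalised reads. The log2 ratio of IFNγ at 4 h to untreated unmodified cells, -1.55 by the gene's own islands, was 0.23 over merged regions. It was 0.65 when an island had to lie mainly inside the window, and by that last rule the ratio in shJunB cells was -1.45. In unmodified cells that rule dropped the 3′ island of the untreated library, 2657 normalised reads, and kept both islands after IFNγ. The reads at Cx3cr1 lay in 2 blocks. The block over the start, from -6.70 to 5.09 kb relative to it, had 212 and 169 normalised reads after 2 h and 4 h of IFNγ and 374 and 393 after IL-4, against 739 in untreated cells, 4.38-fold lower at 4 h of IFNγ. It had 373 with IFNγ and 182 without in shJunB cells, 526 and 237 in shCEBP-beta cells and 542 and 439 in scramble cells. Within this block the log2 ratios with IFNγ at 4 h were -2.13 in unmodified, 1.03 in shJunB, 1.15 in shCEBP-beta and 0.30 in scramble cells. The block from 7.30 kb after the start to beyond the gene's end had 1910 and 994 normalised reads after 2 h and 4 h of IFNγ and 2294 and 2223 after IL-4, against 2657 in untreated cells.

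In the 2 libraries with both cytokines the nearest islands lay 27.9 kb beyond the end of Cx3cr1 in both, with 5384 and 6496 reads, and 41.9 and 41.3 kb before its start. The smallest deposited fold of any island in them was 1.17 and 1.14 at 2 h and 4 h. The top deposited fold at Cx3cr1 in the other 11 libraries ran between 1.64, in untreated shJunB cells, and 4.18, in scramble cells with IFNγ, with 2.40 after 4 h of IFNγ and 3.95 in untreated unmodified cells. Why no island was called there was not tested. Of 11556 protein-coding genes with an island in all the other 11 libraries, 8 (0.0692%), Cx3cr1 among them, had one in neither of these 2.

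**Figure D3:**
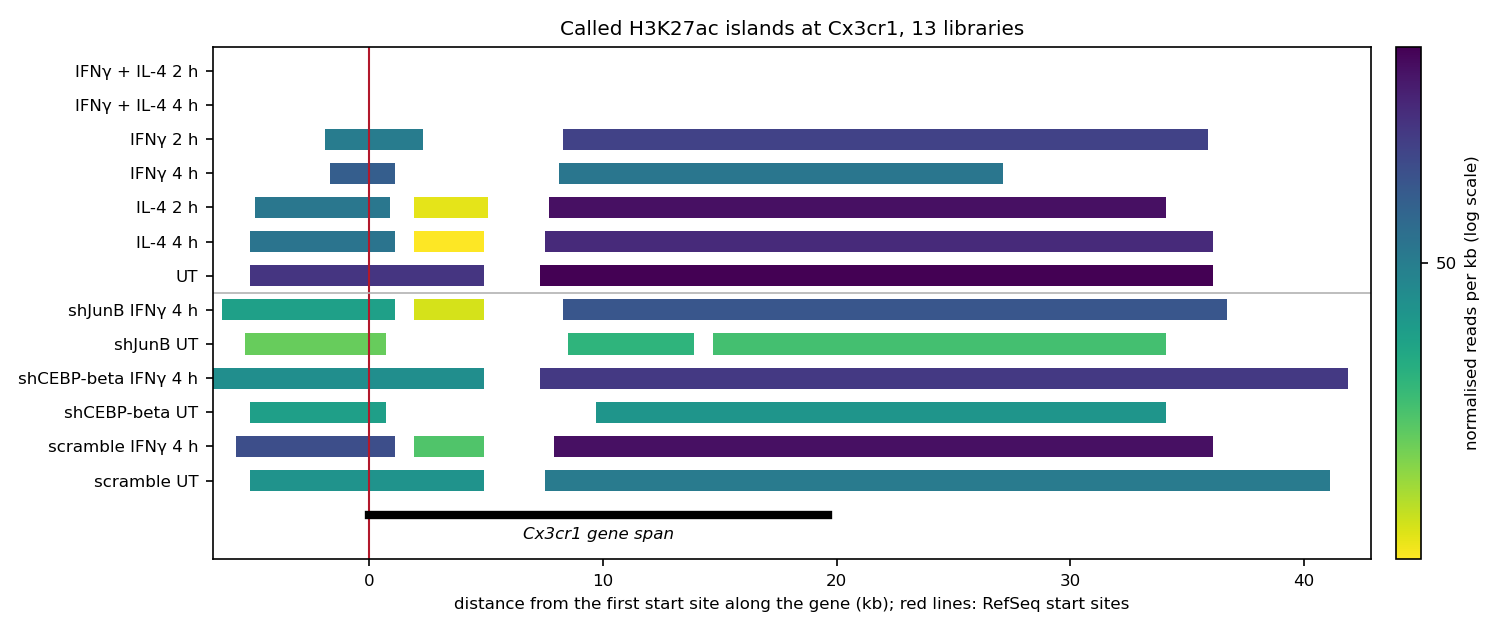
Islands at Cx3cr1 in the 13 libraries (rows), drawn by distance from the start along the gene (x axis, kb; red line at the start), with colour giving normalised reads per kb on a log scale. The rows of both cytokines are empty, and after 4 h of IFNγ the start block holds 169 normalised reads, against 739 in untreated cells.

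Adgre1 was acetylated in 1 short block at its 5′ side, which spanned 7.0 kb of a gene of 125 kb and held at least 95.3% of its reads. It had 1470 and 1582 normalised reads after 2 h and 4 h of both cytokines, 1199 and 1517 after IFNγ and 1943 and 2067 after IL-4, against 1621 in untreated cells. The 2 IL-4 libraries were the 2 highest of all 13, at 1.20-fold and 1.28-fold of untreated cells. Cd68 had 3942 and 4377 normalised reads after 2 h and 4 h of both cytokines, 3438 and 3938 after IFNγ and 3984 and 4633 after IL-4, against 5556 in untreated cells, so all 6 treated libraries were lower, by 1.20-fold to 1.62-fold. Its highest value, 6412 in shJunB cells with IFNγ against 3007 in scramble cells with IFNγ, came from an island of 46.6 kb that runs into neighbouring genes. Counting only the part of each island inside the gene's window, that log2 ratio was 0.07 in place of 1.09.

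Itgam had 2508 and 4561 normalised reads after 2 h and 4 h of both cytokines, 4351 and 7250 after IFNγ and 7461 and 5166 after IL-4, against 5209 in untreated cells. Its islands formed 3 blocks that did not move together. The block over the start, from -19.8 to 13.4 kb relative to it, had 1603 and 3349 normalised reads after both cytokines, 2543 and 5345 after IFNγ and 6702 and 3985 after IL-4, against 4728 in untreated cells. In the 2 h libraries with IFNγ the island over the start spanned 14.6 kb with IL-4 and 15 kb without it, against 28.4 kb in untreated cells. Counting only the part of each island inside the gene's window, the log2 ratio of both cytokines at 2 h to untreated cells was -0.15 for the gene, in place of -1.05.

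The second block of Itgam lies within the gene, 16.6 to 28.4 kb after the start (chr7, 128079201 to 128091000). It had 594 and 592 normalised reads after 2 h and 4 h of both cytokines, 1259 and 1367 after IFNγ alone and 628 and 605 after IL-4, against 481 in untreated cells. IFNγ alone was thus at 2.62-fold and 2.84-fold of untreated cells at 2 h and 4 h, and both cytokines at 1.24-fold and 1.23-fold. Both cytokines stood 2.12-fold and 2.31-fold below IFNγ alone at 2 h and 4 h. In the knockdown experiment the block had 1278 normalised reads with IFNγ and 719 without in shJunB cells, 1216 and 570 in shCEBP-beta cells and 1091 and 553 in scramble cells. All 5 libraries with IFNγ alone lay above 1000 normalised reads and all 8 others below 720, without an overlap. The third block (chr7, 128097201 to 128119000), called in 12 libraries, had 311 and 620 normalised reads after 2 h and 4 h of both cytokines. IFNγ alone gave 549 and 539 there, so at 4 h both cytokines were higher, at 1.15-fold. The block was not called in untreated unmodified cells. After 4 h of IL-4 alone it held more than after IFNγ alone at either time in unmodified cells. After 2 h of IL-4 alone it had its lowest value, 132. In the knockdown experiment this block had 777 with IFNγ and 310 without in shJunB cells, 347 and 259 in shCEBP-beta cells and 399 and 144 in scramble cells.

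**Figure D4:**
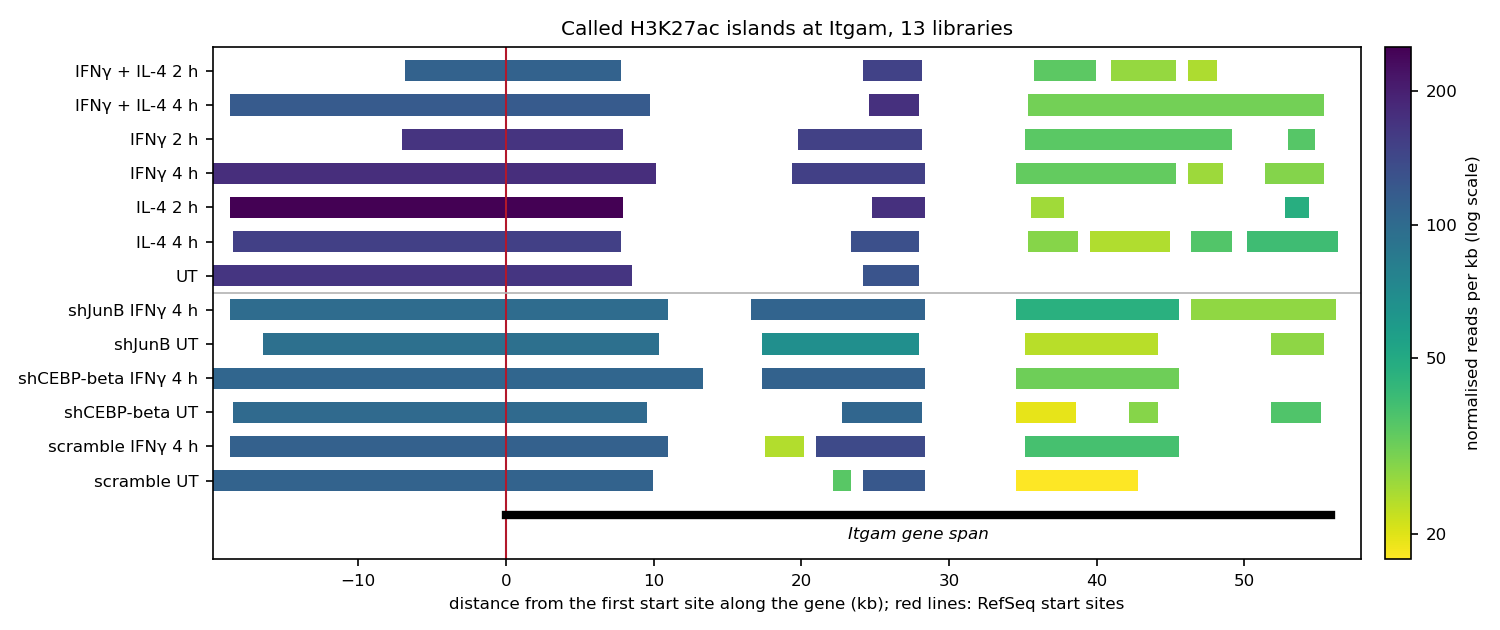
Islands at Itgam in the 13 libraries (rows), drawn by distance from the start (x axis, kb; red line at the start), with colour giving normalised reads per kb on a log scale. The block 16.6 to 28.4 kb after the start holds 1091 to 1367 normalised reads in the 5 libraries with IFNγ alone, against 481 to 719 in the 8 others.

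IFNγ at 4 h is the one treatment seen in several backgrounds, and was tested over the 4 pairs of libraries (shJunB, shCEBP-beta, scramble and unmodified cells), with the background as a block, by edgeR's quasi-likelihood test with Benjamini-Hochberg adjustment over 11849 genes. The 4 pairs are not replicates of 1 condition, and nothing in the labels says whether the libraries came from separate cultures, so these p-values measure the spread between pairs. Of the 9 genes, 2 passed at an adjusted p under 0.05, both higher with IFNγ, which is 22.2% where 33.1% of all genes passed, so the share is no larger than the background. Itgam rose by a log2 change of 0.42 (SE 0.097, adjusted p = 0.030, edgeR), higher in 4 of 4 pairs, and Mitf by 0.36 (SE 0.083, adjusted p = 0.031, edgeR), also higher in 4 of 4. Called length was longer with IFNγ in each of these pairs too. Per kb of called island Mitf had 226 normalised reads with IFNγ against 214 in unmodified and 125 against 123 in scramble cells. It had 122 against 125 in shJunB and 133 against 129 in shCEBP-beta cells. Itgam had 129 against 162 per kb in unmodified and 95.6 against 91.0 in scramble cells. It had 80.3 against 71.5 in shJunB and 91.8 against 86.0 in shCEBP-beta cells. The Itgam and Mitf calls were lost without the scramble, the shJunB or the shCEBP-beta pair, with adjusted p-values between 0.079 and 0.111 (edgeR). The share of all genes that passed also fell in these fits, to 12%, 12% and 11.1%. The median log2 change of the 9 genes was 0.09, and that of all genes tested -0.02. Spi1 had a log2 change of 0.25 (adjusted p = 0.105), Maf of -0.39 (adjusted p = 0.096), Tfec of -0.34 (adjusted p = 0.111), Csf1r of -0.09 (adjusted p = 0.44), Adgre1 of 0.09 (adjusted p = 0.60), Cd68 of -0.05 (adjusted p = 0.88) and Cx3cr1 of 0.36 (adjusted p = 0.62) in the same edgeR fit. Without the unmodified pair 4 members passed, 3 higher and 1 lower, where 30.5% of 12450 genes did. Maf was the lower one, with a log2 change of -0.50 (adjusted p = 0.049, edgeR).

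The same test over 15598 merged island regions was added after the data had been seen. It passed 44% of regions, which is the background for each pass below. The region inside Itgam, 16.6 to 28.4 kb after the start, rose by a log2 change of 1.102 (SE 0.138, adjusted p = 0.0032, edgeR), and the region over the start of Itgam had 0.17 (adjusted p = 0.147). The region of Maf fell by 0.49 on the log2 scale (SE 0.11, adjusted p = 0.018, edgeR). Of the Mitf regions, the downstream one rose by 0.33 (SE 0.079, adjusted p = 0.021, edgeR) and the one over the start had 0.28 (adjusted p = 0.055). The merged region of Cd68, which also covers its neighbours, fell by 0.59 (SE 0.105, adjusted p = 0.0084, edgeR). The 3′ region of Cx3cr1, merged with the neighbouring domain, rose by 1.1002 (SE 0.19, adjusted p = 0.0078, edgeR), and the region over the start of Cx3cr1 had 0.15 (SE 0.59, adjusted p = 0.85). By edgeR the main regions of 4 members did not pass: Spi1 (0.21, adjusted p = 0.069), Tfec (-0.35, adjusted p = 0.060), Csf1r (-0.09, adjusted p = 0.39) and Adgre1 (0.14, adjusted p = 0.40).

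**Figure D5:**
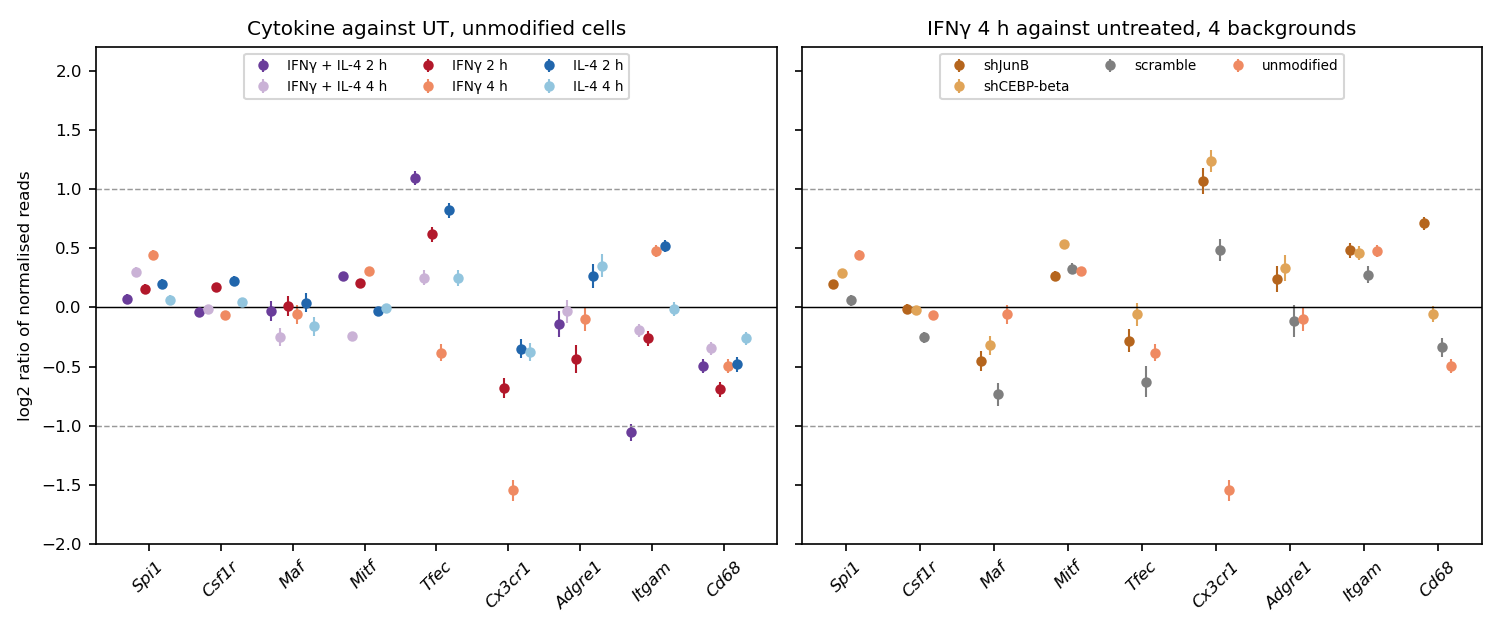
Log2 ratios of normalised reads at the 9 genes with exact binomial 95% intervals (y axis), for each cytokine treatment against untreated unmodified cells (left) and for IFNγ at 4 h against untreated cells in 4 backgrounds (right); dashed lines mark a 2-fold difference, and Cx3cr1 has no point where it was not called. Itgam and Mitf lie above 0 in all 4 backgrounds, and Cx3cr1 lies below 0 in unmodified cells, at -1.55, and above 0 in the 3 shRNA backgrounds.

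Whether IFNγ at 4 h acted differently in the cytokine and the knockdown experiment was tested as an interaction in the same 8 libraries. None of the 9 genes passed, as 0% of the 11849 genes did by edgeR, although 2634 genes had an unadjusted p under 0.05 and DESeq2 passed 957. Cx3cr1 was the 1 member with an unadjusted p under 0.05, with a log2 difference of -2.48 (SE 0.38, adjusted p = 0.075, edgeR), lower with IFNγ in unmodified cells and higher in 3 of 3 shRNA backgrounds, and the 1 that DESeq2 passed. Over regions, where 5.85% passed, the block over the start of Cx3cr1 had a log2 difference of -2.96 (SE 0.39, adjusted p = 0.033, edgeR). The experiments differ in the shRNA and in any batch between them, and these cannot be told apart.

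Set against untreated unmodified cells, a gene passed when the ratio of normalised reads was 2-fold or more and the higher of the libraries held 50 or more. After 2 h of IFNγ 0 of the 9 genes passed, against 29.6% of 13288 protein-coding genes, and after 4 h 1 passed (Cx3cr1, lower), against 31.9%. After 2 h and 4 h of IL-4 0 passed, against 24.2% and 22.8%. After 2 h of both cytokines 3 passed, Tfec higher at 2.14-fold, Itgam 2.08-fold lower and Cx3cr1 not called, against 30% of genes, and after 4 h 1 passed, Cx3cr1 again, against 27.5%. The Itgam call was lost with reads prorated to the window (log2 ratio -0.15) and turned to 2.38 when an island had to lie mainly inside it. That last rule dropped the island over the start in untreated cells, 4728 of 5209 normalised reads. It kept the shorter island over the start after both cytokines, so 2.38 is no measured rise. In 5 of these 6 comparisons the members' share was below the background. Both cytokines set against IFNγ alone passed 1 member, Cx3cr1, at 2 h, against 10.1% of genes, and 1, Cx3cr1, at 4 h, against 16.4%. Set against IL-4 alone they passed 2 at 2 h, Cx3cr1 and Itgam, the second 2.98-fold lower, against 22% of genes, and 1 at 4 h, Cx3cr1, against 20.2%. In every comparison of both cytokines, Cx3cr1 was not called and passed against a fill value, the 5th percentile of reads per island. These passes hold no measured ratio. The Itgam difference from IL-4 at 2 h had a log2 ratio of -0.69 with reads prorated to the window. It was 1.72 under the rule on islands mainly inside it, which dropped the 6702 normalised reads over the start in the IL-4 library alone.

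Over the 7 libraries of the cytokine experiment, an additive edgeR fit with IL-4 and IFNγ terms tested 8 of the 9 genes, Cx3cr1 being left out because it was not called throughout. For IL-4, 0 of the 8 passed and 0% of 11655 genes did, with 1724 genes at an unadjusted p under 0.05 and 1434 passed by DESeq2. Tfec was the 1 member at an unadjusted p under 0.05, with a log2 change of 0.69 (SE 0.20, adjusted p = 0.258, edgeR), and it was higher in 4 of 4 comparisons of a library with IL-4 to one without (the untreated library serving for both IL-4 times). DESeq2 passed Tfec, at an adjusted p of 0.0025. For IFNγ, 0 of the 8 passed, against 6.23% of genes, and none had an unadjusted p under 0.05. DESeq2 passed 1, Adgre1, with a log2 change of -0.38 (adjusted p = 0.014), where it passed 30.8% of genes.

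IFNγ at 4 h set against untreated cells of the same background passed 0 members in scramble cells, against 19.2% of genes, 1 in shJunB cells, against 20.1%, and 1 in shCEBP-beta cells, against 19%, in both cases Cx3cr1. The 4 comparisons of an shRNA with scramble share the scramble libraries within a state. In untreated cells 1 member passed for shJunB, Cx3cr1, at 1025 against 2143 normalised reads or 2.09-fold lower, against 7.97% of genes, and 0 for shCEBP-beta, against 5.92%. With IFNγ 1 passed for shJunB, Cd68, against 7.71% of genes, and 0 for shCEBP-beta, against 5.78%. Fitted over both states with the 6 libraries, edgeR passed 0 of the 9 genes for shJunB, where 0% of 12450 genes passed, 1226 had an unadjusted p under 0.05 and DESeq2 passed 231 genes, none of them a member. Cx3cr1 had a log2 change of -0.79 for shJunB (SE 0.23, unadjusted p = 0.027, adjusted p = 0.478, edgeR), lower in 2 of 2 states. For shCEBP-beta edgeR also passed 0 members, where 0.00803% of genes passed, none had an unadjusted p under 0.05, and DESeq2 passed 0.

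Scramble cells set against unmodified cells in the same state compare the experiments. Untreated, 1 member passed, Tfec, at 1775 against 3639 normalised reads or 2.05-fold lower, against 18.8% of genes. With IFNγ at 4 h 2 passed, Tfec at 1149 against 2794, or 2.43-fold lower, and Cx3cr1 at 2992 against 1163, or 2.57-fold higher, against 20.3% of genes. Mitf was 1.84-fold and 1.81-fold lower in scramble cells in the 2 states, without passing. In the edgeR fit of both states 0 of the 9 genes passed, as 0% of 11981 genes did, with 2162 genes at an unadjusted p under 0.05 and 517 passed by DESeq2, no member among them. The 2 members at an unadjusted p under 0.05 were Mitf, with a log2 change of -0.86 (SE 0.17, adjusted p = 0.197, edgeR), and Tfec, with -1.16 (SE 0.27, adjusted p = 0.213, edgeR), each lower in 2 of 2 states. The share of reads in islands and the covered length differ between the experiments as well, as given above, and their part in these values was not tested.

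Other genes of the same biology were read in the fit of IFNγ at 4 h over the 4 backgrounds, against 15.3% of all genes higher and 17.8% lower. Of 14 other lineage transcription factor genes tested, 2 rose and 2 fell, with a median log2 change of 0.13: Irf8, which directs monocyte development, by 1.25 (adjusted p = 0.033) and Etv6 by 1.097 (adjusted p = 0.022) rose, while Fli1 fell by 0.79 (adjusted p = 0.015) and Runx1 by 0.42 (adjusted p = 0.049), all by edgeR. Of 8 growth factor and receptor genes tested 2 rose and 0 fell, with a median of 0.08. Csf1, the ligand of the Csf1r product, rose by a log2 change of 1.05 (SE 0.19, adjusted p = 0.019, edgeR). Of 27 macrophage core genes tested 2 rose and 9 fell, with a median log2 change of -0.47, and Lyz2, which encodes lysozyme, fell by 2.88 (SE 0.33, adjusted p = 0.0074, edgeR) and C5ar1, the complement C5a receptor, by 1.28 (SE 0.20, adjusted p = 0.013, edgeR). Of 6 genes of tissue macrophages tested 0 rose and 3 fell, Cd163, the haemoglobin scavenger receptor, by 1.55 (adjusted p = 0.031, edgeR).

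Among 9 partners of the members tested, 4 rose and 2 fell, with a median log2 change of 0.37. Itgal, another integrin chain, rose by 3.30 (SE 0.38, adjusted p = 0.0074, edgeR), and Adgre5, an adhesion receptor of the family of Adgre1, fell by 2.76 (SE 0.55, adjusted p = 0.023, edgeR). Lamp1, a lysosomal membrane glycoprotein like CD68, fell by 1.45 (SE 0.15, adjusted p = 0.0066, edgeR). Itgb2, the CD18 chain that pairs with CD11b and is named here for that role after its value was seen, rose by 0.37 (SE 0.098, adjusted p = 0.043, edgeR). Of 13 lysosome and osteoclast genes regulated by MiT factors 1 rose and 3 fell, with a median of -0.20. Atp6v0d2, a proton pump subunit of osteoclasts, fell by 3.41 (SE 0.10, adjusted p = 0.0024, edgeR), and Ocstamp rose by 1.44 (SE 0.20, adjusted p = 0.010, edgeR). A link of these genes to the level at Mitf was not tested. Of 16 housekeeping genes 3 rose and 2 fell, with a median of -0.01.

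The genes whose levels were most like each member's over the 13 libraries, by Pearson correlation of log2 normalised reads, were Rfesd (0.95) and Xiap (0.94) for Spi1, P2ry6 (0.95) and Eef1g (0.94) for Csf1r, Knl1 (0.94) and Zfp113 (0.91) for Maf, Tmem167 and Cenpl (0.95 each) for Mitf, Smc4 (0.98) and Trim59 (0.97) for Tfec, Zfp764 (0.93) and Pa2g4 (0.91) for Adgre1, Fmnl1 and Ubxn11 (0.88 each) for Itgam, and Taf1b and Aagab (0.86 each) for Cd68. These are descriptions over 13 libraries that share 1 control library and fall into 2 experiments. Among the members, Csf1r and Tfec had a correlation of 0.91 over all 13 libraries, 0.47 within the cytokine experiment and 0.63 within the knockdown experiment. Mitf and Tfec had 0.77 over all, 0.04 within the cytokine and -0.53 within the knockdown experiment, so their likeness over all libraries lay between the experiments rather than within them.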

How the data were processed

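Per the submitters' processing notes, reads were aligned with Bowtie2 2.2.6 and islands called with SICER 1.1 on mm10 (GRCm38). The deposited files list, per island, the ChIP and control read counts, a p-value and an FDR, and the fold over the control, all made by the authors; no island had an FDR above 0.01, and all libraries share 1 control. Library totals were recovered from the deposited fold and counts.

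Island read counts were summed per gene (at least 1 bp of overlap with the span or the 1 kb on either side) and divided by median-of-ratios size factors over 14347 merged regions called in all 13 libraries. Reads of an island touching several genes count for each. In single pairs, a gene not called in 1 library took the 5th percentile of reads per island there, for the 2-fold rule only. Genes called in all libraries of a fit were tested with edgeR 4.0.16 (R 4.3.3), with p-values adjusted over all genes; DESeq2 1.42.0 was an alternative. Python 3.11.15, numpy 2.4.6, pandas 2.3.3, scipy 1.17.1 and matplotlib 3.10.9 were used, and the fits were tested on simulated data. All 9 genes are named. Of other lists at most 4 tested genes are named, largest change first except for Itgb2, and the 2 genes most like each member. The members and lists were chosen with earlier results of these data known. Alternatives changed the scaling, the window, the overlap, the islands used and the libraries; the region fits and the reads per kb were added after the data had been seen.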

Additional observations from a re-analysis of the deposited data

Results flagged for a closer look

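By the islands touching each gene, Cx3cr1 was the 1 gene of the 9 whose direction with IFNγ at 4 h was opposite in the cytokine experiment and in all 3 shRNA backgrounds. Its log2 ratio was -1.546 in unmodified cells, against 1.07 in shJunB, 1.24 in shCEBP-beta and 0.48 in scramble cells. Per kb of called island, unmodified cells had 53.3 normalised reads with IFNγ and 87.5 without. The interaction had an adjusted p of 0.075 by edgeR for the gene and 0.033 for the region over its start, and 2.0e-05 for the gene by DESeq2. Summed over the gene, the direction depends on how islands are assigned. In unmodified cells the log2 ratio was 0.23 over merged regions and 0.65 when an island had to lie mainly inside the window. By that rule, which dropped the untreated 3′ island of unmodified cells (2657 normalised reads), it was -1.45 in shJunB cells. In the block over the start it was -2.13 in unmodified, 1.03 in shJunB, 1.15 in shCEBP-beta and 0.30 in scramble cells. Each pair is 1 library against 1, and the shRNA and the batch cannot be told apart.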

How the results depend on the processing

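Over the 19 pairs, 17 values of the 9 genes passed the 2-fold rule, where 5.78% to 31.9% of all genes passed in a single pair. Most of the 17 were of Cx3cr1, in part against a fill value. Of the members' values, 32 passed at 1.5-fold, 7 over merged regions and 27 when an island had to lie mainly inside the window. Per kb of called length (chosen after seeing the data) 4 passed. For these alternatives the share over all genes was not computed. When an island had to lie mainly inside the window, the log2 ratio turned to 0.65 for Cx3cr1 with IFNγ at 4 h in unmodified cells. It turned to 2.38 and 1.72 for Itgam with both cytokines at 2 h against untreated cells and IL-4. For Cx3cr1 it turned to -1.45 with IFNγ in shJunB cells and to -3.59 in scramble against unmodified cells with IFNγ. The 0.65, 2.38 and 1.72 arose where the rule dropped blocks of 2657, 4728 and 6702 normalised reads in the reference library alone. Over merged regions, which join Cx3cr1 to a neighbouring domain, its ratio with IFNγ at 4 h in unmodified cells was 0.23. For IFNγ at 4 h, 2 members passed by edgeR, where 33.1% of genes did. DESeq2 passed 5 (Itgam, Maf, Mitf, Spi1 and Tfec) and 50.3% of genes, merged regions 5 and 47.1%, and relative library depth 1 and 30.2%. Leaving out 1 pair gave 0 to 4 members and 11.1% to 30.5% of genes. Without the replicate block (the background) 0 members passed and 2967 genes, against 2 and 3923 with it; leaving out a pair gave 1316 to 3794 and DESeq2 5956. For the interaction, DESeq2, merged regions and reads prorated to the window passed 1 member each, Cx3cr1, and 957, 1723 and 466 genes, against 0, and no filter 136. DESeq2 passed 1 member for IL-4 (Tfec), where 12.3% of genes passed, and 1 for IFNγ in the cytokine experiment (Adgre1), where 30.8% did. Genes called for IFNγ there ranged between 0 and 254 without 1 treated library, against 726. The cause was not tested. One library per condition and a shared control limit every value.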
